A study of Homo sapiens with 8 samples.

Results

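The effect of HDAC6 depletion on resting cells was examined by setting the 2 siHDAC6 arrays without IL-1 against the 2 siCon arrays without IL-1, which are 4 of the 8 arrays of the series, across all measured genes. The cells were SW1353, an established human chondrosarcoma line that is widely used as a chondrocyte model. The siHDAC6 cells had been transfected with a QIAGEN siRNA against HDAC6 and the siCon cells with the non-targeting AllStars siRNA, and neither group of these 4 arrays received IL-1. The other 4 arrays, siHDAC6 + IL-1 and siCon + IL-1, were transfected alike 24 h before 6 h of IL-1α. The methods describe the siRNA treatment as done in duplicate, but neither they nor the labels state whether the 2 arrays of a group came from separate cultures. Each p-value thus reflects the scatter of these arrays alone, which may be technical. The methods list 1 QIAGEN siRNA for HDAC6, so that on these arrays the loss of HDAC6 and any other effect of that oligonucleotide cannot be told apart. The study also used a Dharmacon siRNA against HDAC6 for MMP expression by real-time PCR, and in primary articular chondrocytes for IL6 and IL8 too. It was not used on these arrays.

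HDAC6 is a class IIb histone deacetylase that resides mainly in the cytoplasm. It removes acetyl groups from α-tubulin, cortactin and the chaperone HSP90, and through a zinc finger it binds ubiquitin and hands misfolded proteins to the dynein motor for transport to the aggresome and autophagy. In chondrocytes, the cells that make and turn over cartilage, it has drawn interest because HDAC inhibitors lower the matrix metalloproteinases and cytokines that IL-1 induces. The comparison without IL-1 asks which transcripts differed before any such stimulus.

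The level of a gene is given throughout as the normalised intensity on a log2 scale, and a difference of 1 is a 2-fold change. A gene was called where limma's moderated test gave an adjusted p under 0.05. Of the 48803 probes 15557 to 16659 (31.9 to 34.1%) were above background on the unstimulated arrays, and a detected probe had a level of at least 4.90 to 5.01. The replicates correlated at 0.988 or more, and siHDAC6 and siCon arrays without IL-1 at about 0.984. Of 11 mesenchymal markers 10 were detected on all 4 arrays, whereas of 14 cartilage markers 3 were (SOX9, COL11A1 and HAPLN1) and 8 were on none, including aggrecan (ACAN) and COMP. The chondrocyte label thus rests on few of its defining genes here. Of the epithelial, endothelial and leukocyte markers 0 of 7, 2 of 5 and 1 of 7 were detected on all 4 arrays, and CDH1, CDH5 and PTPRC on none. VWF, an endothelial clotting factor, had levels of 5.18 and 5.29 with siHDAC6 and of 6.54 and 6.51 with siCon (adjusted p = 0.0326, named like CD68 after its values were seen), and CD68, a lysosomal glycoprotein of macrophages, had 9.70 and 9.60 with siHDAC6 and 10.10 and 10.19 with siCon (adjusted p = 0.0435). The summed leukocyte markers were at 12.36 to 12.48 with siHDAC6 and 12.68 to 12.78 with siCon, and the endothelial ones at 7.79 to 7.83 with siHDAC6 and 8.08 to 8.10 with siCon. The other tested markers of these classes, TEK (0.10), CD79A (0.47) and LYZ (-0.07), were not called (adjusted p = 0.736, 0.408 and 0.870). Both sums were thus lower with siHDAC6, while the single members differed in direction, so that no fall of a whole class is shown. CD79A was above background on 1 array of each group, and LYZ on 1 siHDAC6 array and 2 siCon arrays. That they were not called is thus a weak result. The part of these markers in the results below was not tested. SW1353 is an established line, so that these markers are read as transcripts of its own cells. In bulk RNA, fewer cells expressing a transcript and less of it per cell cannot be told apart.

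HDAC6 mRNA, the target, had levels of 5.14 and 4.87 with siHDAC6 and of 6.36 and 6.32 with siCon, measured by the single probe ILMN_1798546. The groups did not overlap, and 1 of the 2 siHDAC6 arrays lay at or below background. The log2 difference was -1.34 (SE 0.12, adjusted p = 0.00198), or 2.53-fold lower. The size depended on the processing, and the authors' log2 values gave -0.41 (adjusted p = 0.00133). Among the other deacetylases HDAC2, a nuclear class I enzyme, had levels of 9.87 and 9.84 with siHDAC6 and of 10.30 and 10.50 with siCon, a log2 difference of -0.55 (SE 0.11, adjusted p = 0.0378). The HDAC2 call was lost without any 1 of the 4 unstimulated arrays or either siHDAC6 + IL-1 array (adjusted p up to 0.195). The remaining 14 of the 16 measured deacetylases and sirtuins were not called, among them HDAC1 (0.22, adjusted p = 0.293), HDAC3 (0.24, adjusted p = 0.314) and HDAC11 (-0.36, adjusted p = 0.355). The HDAC6 transcript kept its call in all 8 fits that left out 1 array (adjusted p 0.00368 to 0.0279).

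Of 11182 genes tested 183 were higher with siHDAC6 (1.64%) and 270 were lower (2.41%). Most changes were modest, with a median of 0.65 among the genes that rose and of -0.77 among those that fell on the log2 scale, against 0.01 over all genes. Over 2-fold, 21 genes were higher and 72 lower. At an unadjusted p under 0.05 there were 1094 higher and 1102 lower. Nearly all called genes were well measured, since 174 of the 183 and 240 of the 270 were detected on all 4 arrays, while 18 that fell were below background on both siHDAC6 arrays. With 2 arrays a group the number of calls depended on each array. Leaving out siHDAC6 replicate 1, siHDAC6 replicate 2, siCon replicate 1 or siCon replicate 2 left 42, 33, 33 and 38 genes higher and 91, 87, 76 and 77 lower, leaving out either siHDAC6 + IL-1 array left 100 higher and 179 lower, and 81 of the called genes (22 higher, 59 lower) passed in all 8 such fits. The share of rises among the calls was 40.4%, and 17.2% after median scaling (31 higher, 149 lower), which also moved the median of all genes to -0.05. No called gene changed its sign under any alternative run.

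**Figure D1:**
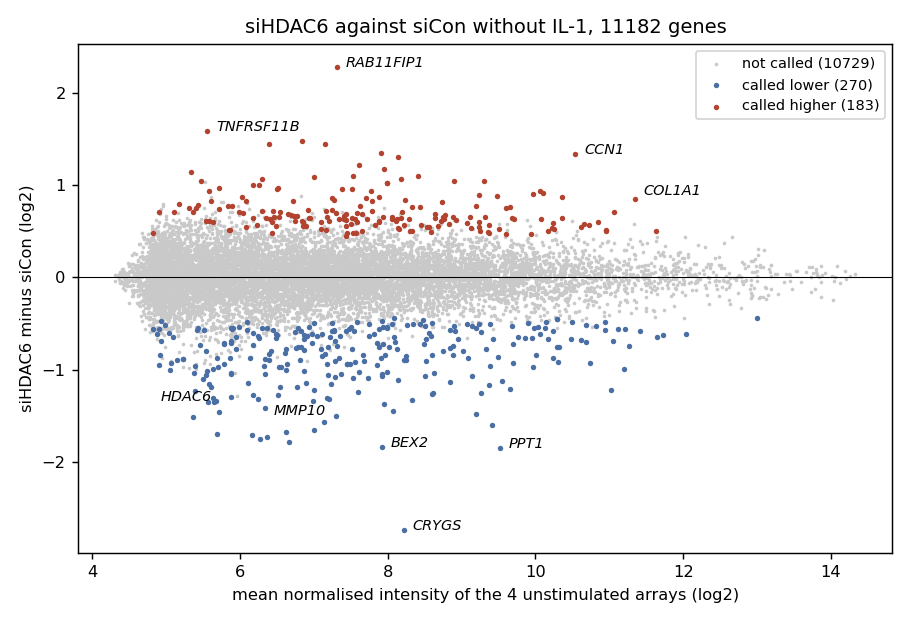
Log2 difference of siHDAC6 minus siCon (vertical axis) against the mean normalised log2 intensity of the 4 unstimulated arrays (horizontal axis), 1 point a gene, with genes called higher in red, called lower in blue and not called in grey. Called genes are spread over most of the range, CRYGS is the lowest point at -2.73, RAB11FIP1 the highest at 2.28, and HDAC6 lies at -1.34 near the low end of the intensity range.

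The genes that fell most were a mixed group of a lens protein, a lysosomal enzyme, a motor subunit and receptors, and 22 genes fell more than HDAC6 itself. That number was 221 in the authors' log2 values, 81 when the background was not corrected, 69 at offset 50 and 42 without siHDAC6 replicate 2. With siHDAC6 the single HDAC6 probe lay near the lowest detected levels of those arrays (5.01 and 4.97), which limits the fall it can show. The count is thus no ranking of the knockdown against other changes. CRYGS, which encodes the lens protein γS-crystallin, had levels of 6.85 on both siHDAC6 arrays and of 9.65 and 9.52 with siCon. Its log2 difference of -2.73 (SE 0.10, adjusted p = 6.79e-05) is a 6.65-fold lower level. PPT1 encodes palmitoyl-protein thioesterase 1, a lysosomal enzyme that strips fatty acids from proteins, and its loss causes a neuronal storage disease. It had levels of 8.63 and 8.55 with siHDAC6 and of 10.48 and 10.41 with siCon, a difference of -1.85 (SE 0.10, adjusted p = 0.000409). BEX2, a small X-linked gene expressed in brain, had 7.10 and 6.90 with siHDAC6 and 8.92 and 8.75 with siCon (-1.83, SE 0.12, adjusted p = 0.000618). In these genes the groups did not overlap, and each kept its call in all 8 fits without 1 array. Genes named for large called changes will seldom overlap, so that a lack of overlap, here and below, adds no support.

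DYNC1I1 encodes an intermediate chain of cytoplasmic dynein, the motor that carries cargo towards the minus end of microtubules. It had levels of 5.89 and 5.67 with siHDAC6 and of 7.51 and 7.60 with siCon, a log2 difference of -1.78 (SE 0.15, adjusted p = 0.00146). BICD2, an adaptor that links dynein to its cargo and was named after its values were seen, had 8.25 and 8.29 with siHDAC6 and 9.45 and 9.37 with siCon (-1.14, adjusted p = 0.00134). The dynein and dynactin genes of the microtubule list were not called. DYNC1I2, the other intermediate chain, had -0.02, DYNC1H1 -0.04, DYNLL1 -0.05, DCTN1 -0.02 and DCTN2 0.12 (adjusted p = 0.582 to 0.960). RFLNB, a regulator of the actin cross-linker filamin, had 5.53 and 5.26 with siHDAC6 and 7.23 and 7.06 with siCon (-1.75, adjusted p = 0.00117). YWHAE, which encodes the adaptor protein 14-3-3ε, had 5.25 and 5.37 with siHDAC6 and 7.05 and 6.99 with siCon (-1.71, adjusted p = 0.000695), and its 2 probes gave -1.42 and -1.99. In none of DYNC1I1, BICD2, RFLNB and YWHAE did the groups overlap.

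FZD8, a Frizzled receptor for Wnt ligands, had levels of 5.83 and 5.75 with siHDAC6 and of 7.46 and 7.47 with siCon (log2 difference -1.68, SE 0.15, adjusted p = 0.0016). EOGT, which adds N-acetylglucosamine to EGF-like domains of secreted proteins, had 4.81 and 4.89 with siHDAC6, where 1 array was at background, and 6.61 and 6.48 with siCon (-1.69, adjusted p = 0.000618). HIGD1A, a mitochondrial inner membrane protein, had 8.65 and 8.59 with siHDAC6 and 10.21 and 10.23 with siCon, and its 2 probes gave -1.63 and -1.57. MMD, first described in maturing macrophages, and RFPL1, a RING-finger protein, had differences of -1.57 and -1.65. SLC22A25, of a family of organic anion transporters, was the least certain of the 12 largest falls. Its siHDAC6 levels of 5.12 and 5.88 lay well apart, its siCon levels were 7.26 and 7.20 (-1.73, SE 0.26, adjusted p = 0.0127), and the call was lost without siHDAC6 replicate 1, siCon replicate 1 or siCon replicate 2 (adjusted p up to 0.092).

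**Figure D2:**
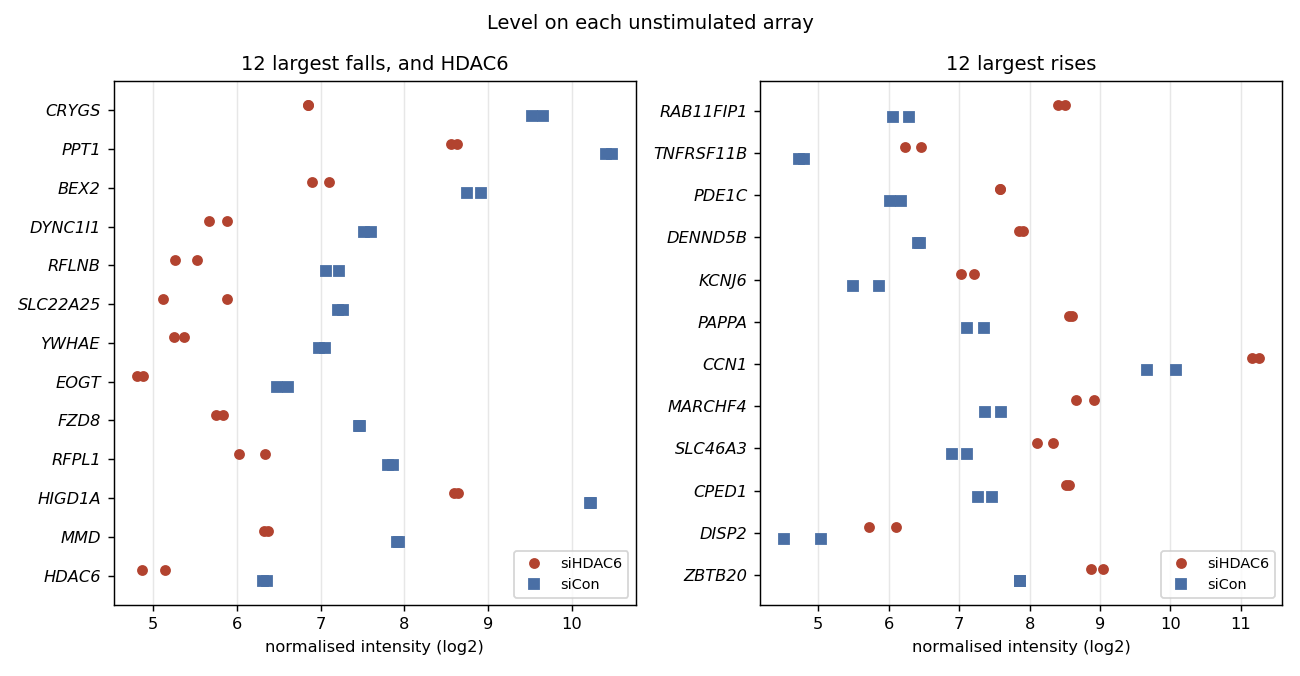
Normalised log2 intensity (horizontal axes) of the 12 genes that fell most, with HDAC6 added (left panel) and of the 12 that rose most (right panel) on each unstimulated array, with siHDAC6 arrays as red circles and siCon arrays as blue squares. The 2 groups do not overlap in any of the 25 genes, which the choice of the largest called changes makes likely. They come closest for DISP2, where siHDAC6 has 6.11 and 5.72 and siCon 4.52 and 5.04.

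Among the genes that rose, RAB11FIP1 stood apart. It encodes an effector of the GTPase Rab11, which returns receptors from endosomes to the cell surface, and had levels of 8.41 and 8.50 with siHDAC6 and of 6.07 and 6.29 with siCon. The log2 difference was 2.28 (SE 0.15, adjusted p = 0.000693), or 4.84-fold higher. TNFRSF11B encodes osteoprotegerin, a secreted decoy receptor for the osteoclast factor RANKL. It had 6.46 and 6.23 with siHDAC6 and lay below background on both siCon arrays (4.73 and 4.79), at least 2.66-fold higher (adjusted p = 0.00198). Enzymes and channels followed, with PDE1C, a calmodulin-dependent cyclic nucleotide phosphodiesterase, at 7.58 and 7.57 with siHDAC6 and 6.03 and 6.17 with siCon (1.48, adjusted p = 0.00109). All 3 PDE1C probes agreed in direction (1.53, 1.29 and 1.62). KCNJ6, an inwardly rectifying potassium channel, had 7.03 and 7.21 with siHDAC6 and 5.87 and 5.49 with siCon (1.44, adjusted p = 0.00248).

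PAPPA, a metalloproteinase that frees IGF by cutting its binding proteins, had levels of 8.57 and 8.61 with siHDAC6 and of 7.36 and 7.11 with siCon, a log2 difference of 1.35 (SE 0.16, adjusted p = 0.00527) that just missed the threshold without siCon replicate 2 (adjusted p = 0.0503). SLC46A3, a lysosomal membrane transporter, had 8.34 and 8.11 with siHDAC6 and 6.90 and 7.11 with siCon (1.21, adjusted p = 0.00272). DENND5B, an activator of Rab GTPases, and MARCHF4, a membrane-bound ubiquitin ligase, differed by 1.45 and 1.30. ZBTB20, a transcriptional repressor, differed by 1.10, with its 2 probes at 1.16 and 1.03, and CPED1 by 1.17. DISP2, a member of the Dispatched family of membrane proteins, gave 1.14 (SE 0.21, adjusted p = 0.0296) and lost its call without siHDAC6 replicate 1, siHDAC6 replicate 2, siCon replicate 1 or either siHDAC6 + IL-1 array (adjusted p up to 0.161). The 12 largest rises ran between 1.10 and 2.28, and the 12 largest falls between -1.57 and -2.73.

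YAP, a transcriptional coactivator held back by the Hippo kinases and released when cells spread on a stiff matrix, acts through the TEAD factors on genes such as CCN1 and CCN2. Of the 27 genes in the list of YAP targets, TEAD factors and CCN family members 25 were measured, and 7 rose with siHDAC6 and 0 fell, or 28% against a background of 1.64% for rises. The list had a median log2 difference of 0.30, against 0.01 over all genes. Of the 25 measured 22 were above 0, against 52.0% of all genes. CCN1, a matrix-bound signalling protein, had levels of 11.25 and 11.15 with siHDAC6 and of 9.67 and 10.07 with siCon (1.33, SE 0.16, adjusted p = 0.00482). CCN2, connective tissue growth factor, had 9.92 and 9.91 with siHDAC6 and 9.08 and 8.99 with siCon (0.88, SE 0.10, adjusted p = 0.00457), with both of its probes alike (0.86 and 0.90). CRIM1, a transmembrane binder of BMPs, had 7.50 and 7.60 with siHDAC6 and 6.40 and 6.53 with siCon (1.09, adjusted p = 0.00535). In each of these genes both siHDAC6 arrays lay above both siCon arrays.

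The other genes of that list that rose were FJX1 (0.82, adjusted p = 0.0127), NT5E, the ecto-nucleotidase CD73 (0.81, adjusted p = 0.029), NUAK2, a kinase (0.70, adjusted p = 0.0348), and F3, tissue factor (0.60, adjusted p = 0.0288). The authors' log2 values gave 0.17 for NUAK2, which was not called there (adjusted p = 0.125), and 0.20 for F3 (adjusted p = 0.0492). NT5E falls outside the naming rule and was named after its values were seen. The transcripts of the regulators themselves were not called, YAP1 having a difference of 0.08, WWTR1 (TAZ) of -0.05 and TEAD1 of -0.01. ANKRD1 and AXL, further targets, had 0.17 and 0.29 (adjusted p = 0.618 and 0.164), and CCN4 had -0.35 (adjusted p = 0.105). The number called depended on single arrays, with 5, 2, 2 and 3 of the list higher without siHDAC6 replicate 1, siHDAC6 replicate 2, siCon replicate 1 and siCon replicate 2, and 2 after median scaling. CCN1 kept its call in all 8 fits without 1 array (adjusted p up to 0.0433), and so did CCN2 (up to 0.0468), although CCN2 missed the threshold after median scaling.

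The promoters of CCN2 and NUAK2 are shown because these are the genes of this group, among the 5 with a promoter in the table used, that hold the TEAD core motif GGAATG (either strand, overlaps allowed) in the 250 bases before the gene start. FJX1, NT5E and F3 held none there. The sequences are from RefSeq on GRCh38.p14 and run 5′ to 3′ along the gene's own strand, with the motif in capitals. They cover chr6:131951373-131951622 for CCN2 and chr1:205321746-205321995 for NUAK2, both on the minus strand.
CCN2: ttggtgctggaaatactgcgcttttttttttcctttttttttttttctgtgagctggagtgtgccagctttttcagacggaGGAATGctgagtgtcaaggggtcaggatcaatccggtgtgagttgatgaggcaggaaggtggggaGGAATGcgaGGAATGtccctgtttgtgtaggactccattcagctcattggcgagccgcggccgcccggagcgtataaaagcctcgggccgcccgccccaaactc
NUAK2: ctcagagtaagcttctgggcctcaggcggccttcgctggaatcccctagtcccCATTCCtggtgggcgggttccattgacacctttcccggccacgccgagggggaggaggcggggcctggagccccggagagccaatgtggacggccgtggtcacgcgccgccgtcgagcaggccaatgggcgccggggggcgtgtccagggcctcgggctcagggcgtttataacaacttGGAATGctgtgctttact
CCN2 has 3 copies, starting 169, 104 and 95 bases before the gene start, and NUAK2 has 2, starting 197 and 18 bases before it, the first of them on the opposite strand. The motif was present in 11.9% of all 27305 promoters of this length and in 9.44% of the 9182 of tested genes that matched the table. It was found in 11.8% of the 153 matched genes that rose and in 9.13% of the 219 that fell. Of the YAP and CCN list 6 of the 16 tested members with a promoter held it (37.5%), and 2 of the 5 that rose (40%), so that it was also present in members that were not called. A match is a description of these letters only.

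Matrix genes rose in part. Of 42 measured collagens and matrix assembly genes 4 rose and 0 fell (9.52% against 1.64%), with a list median of 0.13. THBS1, the matricellular protein thrombospondin 1, had levels of 10.38 and 10.46 with siHDAC6 and of 9.49 and 9.54 with siCon (0.90, SE 0.11, adjusted p = 0.00599). COL1A1, the main chain of type I collagen, had 11.81 and 11.72 with siHDAC6 and 10.83 and 11.02 with siCon (0.85, SE 0.12, adjusted p = 0.00884). COL16A1 and COL13A1, minor collagens, both differed by 0.71. COL1A1 is also a mesenchymal marker, and COL1A2, its partner chain, had a difference of 0.07 (adjusted p = 0.789). Without siHDAC6 replicate 1, siHDAC6 replicate 2, siCon replicate 1 or siCon replicate 2 the number called was 1, 0, 0 and 2, and after median scaling it was 0. Of 16 measured cartilage matrix genes SPARC alone was called (0.50, adjusted p = 0.0437), a call lost without any unstimulated array or either siHDAC6 + IL-1 array (adjusted p up to 0.188).

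MMP10, ADAM23 and ADAMTS1 fell among the matrix proteases, and TIMP3 and RECK rose among their inhibitors, while most members of these lists were not called. MMP10, stromelysin 2, which cleaves proteoglycans and activates collagenases, had levels of 5.64 and 5.63 with siHDAC6 and of 7.01 and 7.09 with siCon, a log2 difference of -1.41 (SE 0.10, adjusted p = 0.000693). It was the 1 matrix metalloproteinase called among 12 measured (8.33% against 2.41% for falls). Of the 12 measured, 7 were detected on all 4 unstimulated arrays, and the list median holds the others too. The list median was -0.21, and MMP3, MMP9, MMP14 and MMP2 had differences of -0.17, -0.45, -0.25 and 0.08 (adjusted p = 0.444, 0.075, 0.582 and 0.784). TIMP3, a matrix-bound inhibitor of metalloproteinases and ADAMTS enzymes, had 9.86 and 9.80 with siHDAC6 and 8.84 and 8.73 with siCon (1.05, SE 0.10, adjusted p = 0.00245). RECK, a membrane-anchored inhibitor, and SERPINH1, the collagen chaperone HSP47, rose by 0.69 and 0.56, so that 3 of the 14 measured protease inhibitors and plasminogen genes rose (21.4% against 1.64%), with a list median of -0.03. Of these SERPINH1 is not an inhibitor of proteases in its known role. RECK lost its call without siHDAC6 replicate 2, either siCon array or either siHDAC6 + IL-1 array and SERPINH1 without any of the 4 unstimulated arrays or either siHDAC6 + IL-1 array (each with an adjusted p up to 0.149), whereas TIMP3 and MMP10 were called in all 8 fits. ADAM23 and ADAMTS1 fell among 14 ADAM and ADAMTS genes (-0.79 and -0.52, or 14.3% against 2.41%). ADAMTS1, below background on both siHDAC6 arrays, was at least 1.2-fold lower. The authors' log2 values gave -0.10 for ADAMTS1 (adjusted p = 0.345). The call for ADAMTS1 was lost when any unstimulated array or either siHDAC6 + IL-1 array was left out (up to 0.183), and that for ADAM23 without siHDAC6 replicate 2 or either siCon array (up to 0.0827).

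The genes through which the study follows IL-1 were near background or were not called in resting cells. MMP13, the collagenase of type II collagen, was below background on all 4 unstimulated arrays, and so was IL6, so that no fold change is given for them. MMP1, interstitial collagenase, had levels of 4.87 and 4.64 with siHDAC6 and of 5.07 and 4.87 with siCon, and 1 of the 4 arrays was above background. CXCL8 (IL8), a neutrophil chemokine, had 5.54 and 5.31 with siHDAC6 and 5.43 and 5.61 with siCon (-0.09, SE 0.12, adjusted p = 0.751), and the groups overlapped. NFKBIA, which encodes IκBα, the inhibitor that holds NF-κB in the cytoplasm, had 9.18 and 9.19 with siHDAC6 and 9.33 and 9.55 with siCon (-0.26, SE 0.12, adjusted p = 0.275). Both siHDAC6 arrays were below both siCon arrays in NFKBIA, but the difference did not pass the test.

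**Figure D3:**
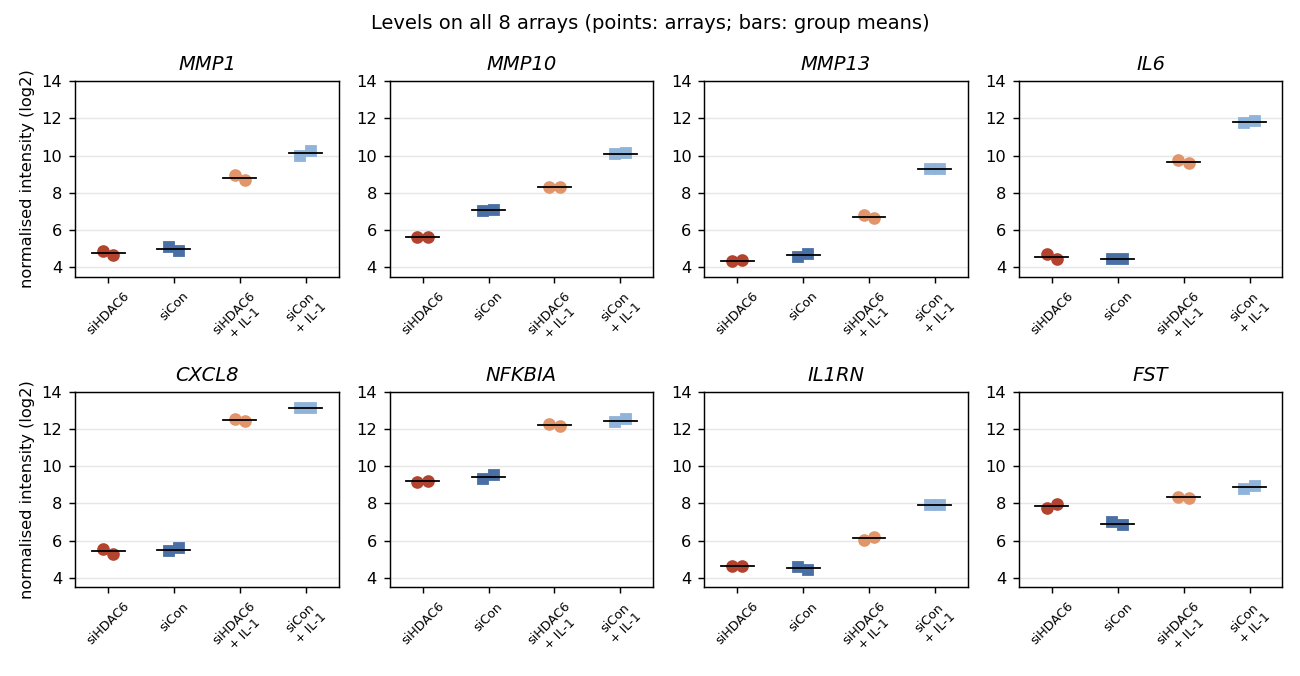
Normalised log2 intensity (vertical axes) of 8 genes on all 8 arrays, with 1 point an array and a bar at the mean of the 2 arrays of a group, in the order siHDAC6, siCon, siHDAC6 + IL-1 and siCon + IL-1. Without IL-1 MMP10 is lower with siHDAC6 (5.64 and 5.63) than with siCon (7.01 and 7.09), FST is higher (7.76 and 7.95, against 6.98 and 6.82), and the other 6 genes were not called.

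Of 27 measured NF-κB subunits and inhibitors 0 were called, with differences between -0.57 and 0.39, and at the transcript level RELA and NFKB1 had 0.31 and 0.18 (adjusted p = 0.156 and 0.382). Among well-known targets of NF-κB 23 were measured, of which 3 rose (13%) and 1 fell (4.35%), against 1.64% and 2.41% of all genes. Those that rose were GADD45B, a stress-response protein (0.71, adjusted p = 0.0333), NUAK2 and F3, the last a pair that the YAP list holds too. CD83, a surface protein of activated immune cells, fell by 0.77 on the log2 scale (SE 0.11, adjusted p = 0.01), at 5.54 and 5.58 with siHDAC6 and 6.32 and 6.35 with siCon. Of 18 measured genes of IL-1 receptor signalling MYD88, the adaptor shared by the IL-1 and Toll-like receptors, fell by 0.63 (adjusted p = 0.0195) and TLR4 by 0.58 (adjusted p = 0.0484), or 11.1% against 2.41%. Of 20 chemokines 0 were called, and of 35 cytokines and receptors 3 rose (8.57% against 1.64%), TNFRSF11B, IL7R, the IL-7 receptor chain (0.77, adjusted p = 0.0076), and TNFRSF21, death receptor 6 (0.70, adjusted p = 0.0171). Detected on all 4 unstimulated arrays were 7 of these chemokines, 19 of the cytokines and receptors, 9 of the IL-1 signalling genes and 15 of the NF-κB targets. The others passed the filter over all 8 arrays. For members at background without IL-1, not being called is no measured absence of a change. Of 47 interferon-stimulated genes 3 fell (6.38% against 2.41%), IFI44 (-0.88, adjusted p = 0.00885), the DNA sensor IFI16 (-0.63, adjusted p = 0.0484) and the lysosomal reductase IFI30, which was below background on both siHDAC6 arrays and at least 1.28-fold lower (adjusted p = 0.0489). IFI30 was not called in the authors' log2 values (-0.19, adjusted p = 0.0846). Other than TNFRSF11B, every gene called in these lists lost its call without siCon replicate 2 and without at least 1 further array (adjusted p up to 0.213).

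Of the genes tied to the known work of the HDAC6 protein, a few were called. Falls were 2.94% of chaperones, 3.23% of proteasome and ubiquitin genes and 2.63% of autophagy genes, against 2.41% of all genes. Rises were 3.23% of proteasome and ubiquitin genes, 2.7% of actin genes and 4% of cilium genes, against 1.64%. Each share stands for 1 gene, so that none is a result about its list. The list of 40 measured tubulin and microtubule genes, which does not hold DYNC1I1 and BICD2 with the falls given above, had 0 called, the range being -0.43 to 0.44, and TUBA1A and TUBA1B had differences of -0.17 and -0.03. Of 34 heat shock proteins and chaperones 1 fell, CCT2, a subunit of the tubulin- and actin-folding chaperonin, with levels of 9.97 and 9.84 with siHDAC6 and 10.64 and 10.69 with siCon (-0.76, adjusted p = 0.0162). HSP90AA1, an HDAC6 substrate as a protein, had -0.45 (adjusted p = 0.0726). Of 31 proteasome and ubiquitin genes 1 fell and 1 rose. UCHL5, a deubiquitinase of the proteasome, had levels of 6.25 and 6.54 with siHDAC6 and of 7.52 and 7.70 with siCon (-1.22, SE 0.17, adjusted p = 0.0102), a call lost without siHDAC6 replicate 1 or either siCon array (up to 0.0872), and UBE2C, a ubiquitin-conjugating enzyme of mitosis, had 0.55 (adjusted p = 0.0343). Of 38 autophagy and aggresome genes 1 fell, ULK1, the kinase that starts autophagy (-0.45, adjusted p = 0.0441), while SQSTM1 (p62) and VCP, the segregase that binds HDAC6, had -0.14 and -0.03 (adjusted p = 0.749 and 0.932). Of 37 actin and motility genes RDX, the membrane linker radixin, rose by 0.50 (adjusted p = 0.0455), and of 25 cilium genes NEDD9, a scaffold known to promote the loss of cilia, rose by 0.77 (adjusted p = 0.0204), with its 4 probes between 0.34 and 1.31. CCT2 and NEDD9 lost their calls without any 1 of the 4 unstimulated arrays (adjusted p up to 0.112 and 0.137), and RDX and ULK1 without any 1 of the 8 arrays (up to 0.216 and 0.182).

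Few lysosomal genes were called. Of 52 measured 3 fell (5.77% against 2.41%) and 1 rose (1.92% against 1.64%), with a list median of -0.02. PPT1, with the fall given above, was joined by LGMN, the asparagine-specific protease legumain, with levels of 9.17 and 8.93 with siHDAC6 and of 10.31 and 10.21 with siCon (-1.21, SE 0.11, adjusted p = 0.00207) and its 2 probes at -1.23 and -1.19. CTSL, the protease cathepsin L, had 9.71 and 9.55 with siHDAC6 and 10.29 on both siCon arrays (-0.66, adjusted p = 0.0176), and its 3 probes ran between -0.82 and -0.56. ATP6V1A, a subunit of the proton pump that acidifies lysosomes, rose by 0.54 (adjusted p = 0.0437). PPT1 and LGMN were called in all 8 fits without 1 array, CTSL was not without any unstimulated array (adjusted p up to 0.118), and ATP6V1A in none of them (up to 0.200). PPT1 and LGMN were already known to be lower in these data when they were placed in the list, so that its count is not independent evidence of its direction.

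Mitosis genes leaned upwards, with 36 of 44 above 0, against 52.0% of all genes, and a median of 0.29. Called higher were 5 of them (11.4% against 1.64%), namely KIF23, a kinesin of the midbody, CKS2, PRC1, UBE2C and TOP2A. TOP2A was named after its values were seen. KIF23 had levels of 6.99 and 7.28 with siHDAC6 and of 6.24 and 6.37 with siCon (0.83, SE 0.13, adjusted p = 0.0176). CKS2, a partner of cyclin-dependent kinases, and PRC1, a bundler of spindle microtubules, had 0.57 and 0.56 (adjusted p = 0.035 and 0.0497). These counts depended strongly on the processing, at 14 of the list in the authors' log2 values, 0 after median scaling, 0 without siHDAC6 replicate 2, siCon replicate 1 or siCon replicate 2, and 1 without siHDAC6 replicate 1 or either siHDAC6 + IL-1 array. Of 37 DNA replication genes 0 were called, with a median of 0.12. Among 31 cell cycle inhibitors and p53 targets GADD45A, a growth-arrest gene, fell by 0.55 (adjusted p = 0.0315), losing its call without any unstimulated array or either siHDAC6 + IL-1 array (up to 0.174).

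FADS1 and 3 hypoxia and glycolysis genes fell, and SC5D rose, among the metabolic lists. FADS1, the Δ5 fatty acid desaturase, had levels of 7.30 and 7.22 with siHDAC6 and of 8.73 and 8.54 with siCon, a log2 difference of -1.37 (SE 0.11, adjusted p = 0.00111). Of the 26 cholesterol and fatty acid synthesis genes measured, FADS1 included, 20 were above 0, against 52.0% of all genes, with a median of 0.23. SC5D, a late enzyme of cholesterol synthesis, was called higher (0.59, adjusted p = 0.0444), though in none of the 8 fits without 1 array. Of 31 hypoxia and glycolysis genes 3 fell (9.68% against 2.41%), the vasodilator peptide ADM (-0.57), the glucose transporter SLC2A3 (-0.56) and the glycolytic enzyme PGK1 (-0.48), with adjusted p of 0.028, 0.0274 and 0.0404. Each lost its call without any 1 of the 4 unstimulated arrays (up to 0.184). Of 24 NRF2 targets HMOX1, which breaks down haem, fell by 0.93 (SE 0.13, adjusted p = 0.00937), at 9.38 and 9.08 with siHDAC6 and 10.10 and 10.22 with siCon, and lost its call without siHDAC6 replicate 2 or either siCon array (up to 0.0822). SLC3A2, a subunit of amino acid transporters, fell by 0.95 (adjusted p = 0.00844), and it did not pass without siHDAC6 replicate 1 or either siCon array (up to 0.0757).

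In the TGF-β and BMP pathway 3 of 37 measured genes fell and 1 rose (8.11% and 2.7%, against 2.41% and 1.64% of all genes). TGFB3, a TGF-β ligand, had levels of 7.25 and 7.21 with siHDAC6 and of 8.12 and 8.16 with siCon (-0.91, SE 0.11, adjusted p = 0.00534). BMP2, a bone morphogenetic ligand, had 5.60 and 5.12 with siHDAC6 and 6.48 and 6.33 with siCon (-1.04, SE 0.19, adjusted p = 0.0255). FST, follistatin, a secreted trap for activins and BMPs, had 7.76 and 7.95 with siHDAC6 and 6.98 and 6.82 with siCon (0.96, SE 0.12, adjusted p = 0.00573). GDF15, a stress-induced ligand of the family, fell by 0.57 (adjusted p = 0.0196). TGFB3 and FST lost their calls without siHDAC6 replicate 2 or siCon replicate 2 (up to 0.0503 and 0.0568), BMP2 also without siCon replicate 1 (up to 0.14), and GDF15 without any unstimulated array (up to 0.117).

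**Figure D4:**
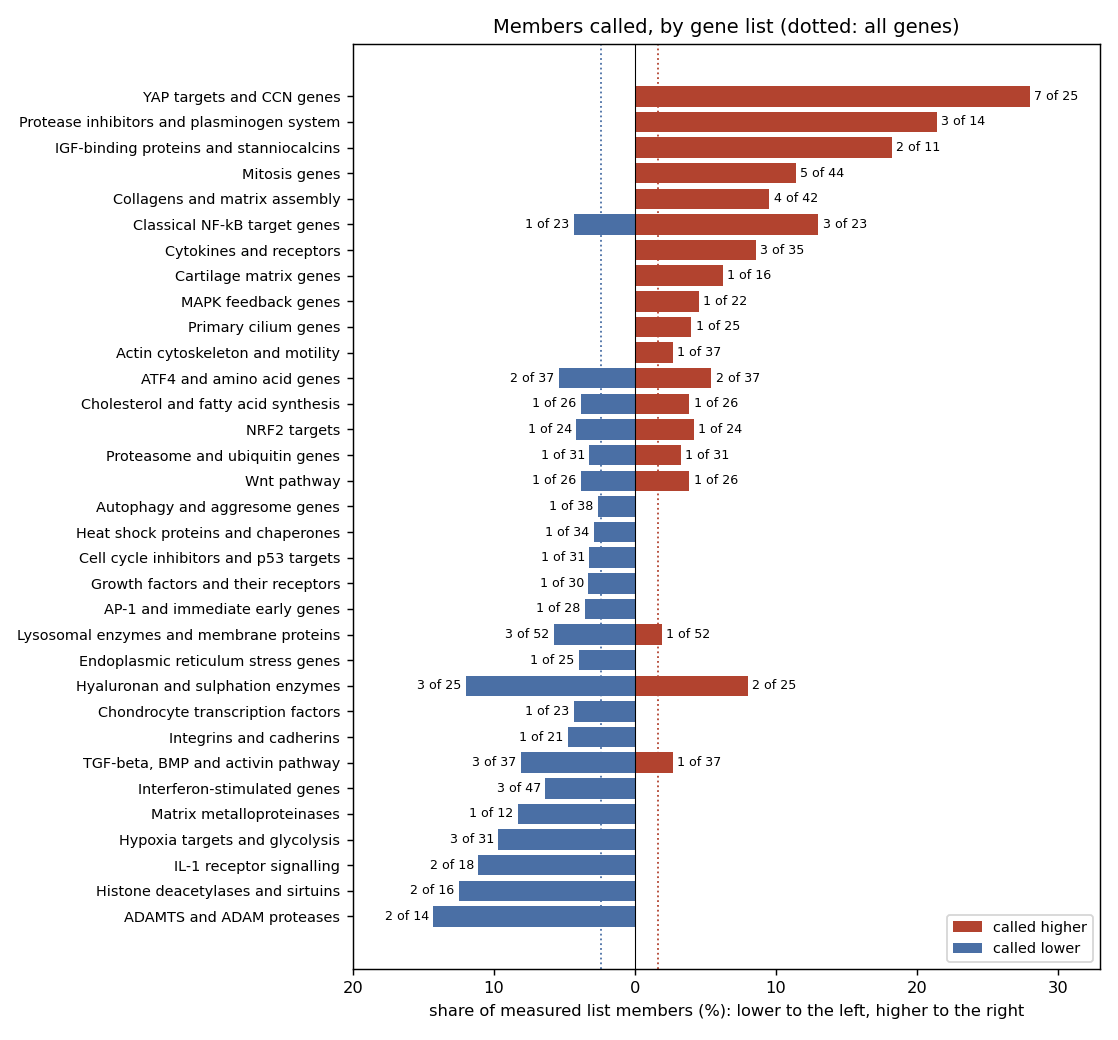
Share of the measured members of each gene list called higher (red, to the right) or lower (blue, to the left) with siHDAC6 without IL-1, for the 33 of 40 lists with at least 1 call, and the number called of the number measured beside each bar. The dotted lines mark the shares over all tested genes, 1.64% higher and 2.41% lower. The YAP and CCN list reaches furthest to the right at 7 of 25, and most other bars stand for 1 to 5 genes. The lists were chosen with earlier results of these data known, so that the shares are not independent evidence.

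Of hyaluronan and sulphation enzymes 2 of 25 rose and 3 fell (8% and 12%, against 1.64% and 2.41% of all genes). CEMIP, which is needed for the breakdown of hyaluronan, fell by 0.74 on the log2 scale (adjusted p = 0.0197), and its paralogue CEMIP2 rose by 0.69 (adjusted p = 0.029). SULF2, which trims sulphate from heparan sulphate, fell by 0.67, CHST15, a chondroitin sulphotransferase named after its values were seen, by 0.51, and EXT1, which builds heparan sulphate chains, rose by 0.63. None of CEMIP, CEMIP2, SULF2 and EXT1 kept its call without siHDAC6 replicate 1, siHDAC6 replicate 2 or siCon replicate 1 (adjusted p up to 0.159). Both groups had received an siRNA, so that a response to transfection itself cannot be seen in this comparison. Of 14 double-stranded RNA sensors and 18 genes of the small RNA silencing machinery 0 were called, with differences of -0.38 to 0.23 and -0.34 to 0.34. Fatty acid oxidation and peroxisome genes likewise had 0 of 29 called. Of the 40 lists 33 held at least 1 called gene.

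The pair of groups with IL-1 shares no array with the unstimulated pair and shows whether the same differences were present after IL-1, although both fits use 1 estimate of spread. With IL-1 902 genes were called (8.07%), 408 higher (3.65%) and 494 lower (4.42%). Of the 453 genes called without IL-1 431 had the same sign with IL-1 (95.1%), against 6824 of the 10729 that were not called (63.6%). Among the 183 that rose 107 were also called higher with IL-1, and among the 270 that fell 166 were also called lower, together 60.3% of the unstimulated calls and 30.3% of the calls with IL-1. Across the 453 genes the 2 differences had a Pearson correlation of 0.90, and across all genes of 0.51. The 453 genes were chosen for their difference on 1 of the 2 axes, which by itself raises their correlation above that of all genes. These values are across genes, which are not independent replicates and share probes, layout and background. CRYGS (-2.33), PPT1 (-1.72), BEX2 (-1.91), RAB11FIP1 (1.96) and PDE1C (1.47) were called in the same direction with IL-1 (log2 differences with IL-1 in parentheses). CCN1 (0.86, adjusted p = 0.0189) was also called with IL-1, while CCN2 (0.39, adjusted p = 0.0561) was not, although the test of the difference between its effects with and without IL-1 did not pass (-0.49, adjusted p = 0.335).

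**Figure D5:**
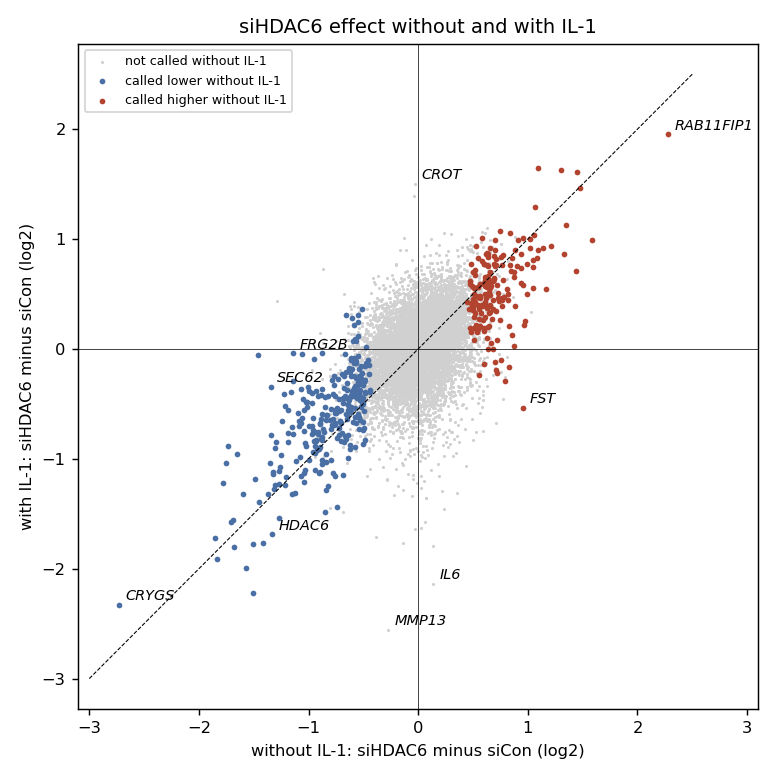
Log2 difference of siHDAC6 minus siCon with IL-1 (vertical axis) against that without IL-1 (horizontal axis), 1 point a gene, coloured by its call without IL-1, with equality as a dashed line. The called genes were chosen by their value on the horizontal axis, and 431 of 453 lie on the same side of 0 on both axes. FST lies on opposite sides of 0 and CROT lies near 0 without IL-1, as do IL6 and MMP13, which were below background there.

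The difference of the 2 effects passed the test for 13 genes (0.116%), and 1116 reached an unadjusted p under 0.05. FST was the 1 gene among them that was called without IL-1. It rose by 0.96 in unstimulated cells, whereas with IL-1 it had levels of 8.36 and 8.30 with siHDAC6 and of 8.79 and 8.95 with siCon, a log2 difference of -0.54 (adjusted p = 0.0359). The difference was -1.49 (SE 0.17, adjusted p = 0.0277), and this was lost in each of the 8 fits without 1 array (adjusted p 0.0615 to 0.19). SEC62, a subunit of the ER translocation machinery, fell by 1.35 without IL-1 (adjusted p = 0.000773). It had 4.97 and 4.98 with siHDAC6, where 1 array was at background, and 6.37 and 6.28 with siCon. The authors' log2 values gave -0.41 without IL-1 (adjusted p = 0.000882). With IL-1 SEC62 had -0.34 (adjusted p = 0.0698). For SEC62 the test of the difference gave 1.00 (SE 0.14, adjusted p = 0.0595), which did not pass.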

How the data were processed

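Total RNA of SW1353 cells was profiled on 8 Illumina arrays, 2 a group. The authors deposited the summarised signal intensity of each of 48803 probes, without background subtraction or normalisation, together with a p-value of detection. A table of log2 values was deposited as well, and per the labels and methods the authors had used lumi, of unstated version, with variance stabilisation and robust splines.

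Here the signals were normalised with neqc of limma 3.58.1 (offset 16) in R 4.3.3. A probe was retained when 2 or more of the 8 arrays detected it (p below 0.05), which left 18045, and the 14483 with 1 gene symbol were averaged to 11182 genes. Group means were fitted over all 8 arrays with lmFit and eBayes, and p-values were adjusted by Benjamini-Hochberg over all genes. The workflow was tested on simulated data. Where a gene was below background on both arrays of a group, a lower bound was computed against the lowest detected level of each array. Summed marker levels are log2 of the summed linear values. The number of arrays limits the precision.

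The genes named are HDAC6 and those the study names, the 12 largest called rises and 12 largest called falls whose sign was shared by replicates 1 and replicates 2, up to 4 called members of each of 40 gene lists, and the 5 strongest genes in each direction for the difference between the effects with and without IL-1. Comparison members, lists and this rule were chosen with earlier results of these data known. Alternatives were the authors' log2 values, other background, scaling, offset, detection, probe and variance settings (statmod 1.5.0), the 4 arrays alone, a replicate block and leaving out each array. The trichostatin A arrays of the study were not analysed here.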

Additional observations from a re-analysis of the deposited data

Results flagged for a closer look

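For 7 of the named genes the siHDAC6 effect with IL-1 differed from that without IL-1 by limma's test of the difference itself (effect with IL-1 minus effect without, log2). The fitted differences were -2.28 for MMP13 (adjusted p = 0.00555), -2.27 for IL6 (adjusted p = 0.00555), -1.93 for IL1RN, the IL-1 receptor antagonist (adjusted p = 0.00701), -1.69 for CXCL10, an interferon-induced chemokine (adjusted p = 0.013), -1.61 for MMP12, macrophage elastase (adjusted p = 0.0104), -1.49 for FST (adjusted p = 0.0277) and 1.53 for CROT, a peroxisomal carnitine acyltransferase (adjusted p = 0.0311). MMP13, IL6, IL1RN and MMP12 were below background on all 4 unstimulated arrays, and CXCL10 was above background on 1 siHDAC6 array alone. For these 5 genes the effect without IL-1 was not measured, so that the size of the fitted difference is no measured fold and rests on the arrays with IL-1. The calls of CROT and FST were lost in all 8 fits without 1 array, those of MMP12 and CXCL10 in 7 and that of IL1RN in 4. MMP13 and IL6 lost theirs only without siCon replicate 2 (adjusted p = 0.0509 and 0.0709).

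Among the 3562 detected probes that carry no single gene symbol, which the gene-level comparison does not use, 18 were called higher and 43 lower with siHDAC6 in unstimulated cells (1.71%), against 2.64% of the 14483 probes with 1 symbol.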

How the results depend on the processing

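HDAC6 kept its direction and its call under every alternative run, and its log2 difference ran between -1.47 and -1.20 in the fits without 1 array. Of the 92 named called genes 28 kept their call under every alternative and 0 changed sign. The counts moved more, with 529 higher and 595 lower in the authors' log2 values, 399 and 456 when the background was not corrected, 421 and 470 at offset 50, 31 and 149 after median scaling, 372 and 417 with a stricter detection filter, 461 and 517 with trend and robust moderation, 52 and 126 in a fit of the 4 unstimulated arrays alone, and 21 and 72 when a 2-fold change was required as well. The cause was not tested, except that the last 2 settings hold fewer arrays or a further threshold. Analysing each probe on its own, an alternative chosen after seeing the data, gave 168 and 276.

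The fits without 1 array gave 33 to 187 genes higher and 76 to 272 lower. For the difference of the effects with and without IL-1 they gave 0 to 1 genes above 0 and 0 to 8 below 0. That count was 1 above 0 and 12 below 0, against 45 and 119 in the authors' log2 values, 9 and 70 when the background was not corrected, 13 and 71 at offset 50, 7 and 34 with the stricter filter and 15 and 59 with trend and robust moderation. Above 0 it was 5 after median scaling and 2 without a detection filter.

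The replicate numbers showed no pairing (correlation of the replicate differences -0.043 between siHDAC6 and siCon), and the replicate number as a block gave 118 genes higher and 200 lower, and 0 above 0 and 6 below 0 for the difference of the effects.

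MMP12 and CLDN1 were below background on all 4 unstimulated arrays, so that the sign of their fitted differences has no meaning. MMP12 had 0.018 with the probe of the highest mean, and -0.071 to 0.0094 without siHDAC6 replicate 2 or siHDAC6 replicate 1. In the fits without 1 array CLDN1 had -0.10 to 0.029, and CXCL8 and CROT, which were detected and not called, had -0.21 to 0.027 and -0.19 to 0.13. HDAC6 had -0.41 in the authors' log2 values, and the cause was not tested. The slide could not be used as a block, because the sources used here do not give it.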
